A study of Mus musculus with 75 samples.

Results

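CTCF peaks of mid G1 were compared with CTCF peaks of late G1 in mouse G1E-ER4 cells, to follow which binding sites stayed on, left or joined the list as cells moved through G1. All peaks of both lists were used, 36009 in mid G1 and 33499 in late G1, or 69508 of the 181220 peaks in the 6 CTCF lists of the series. A mid G1 peak was called kept where its overlap with some late G1 peak was 1 bp or more, and lost otherwise. A late G1 peak that shared no base with a mid G1 peak was called gained. By this rule 3898 mid G1 peaks were lost, 1342 late G1 peaks were gained, and 32111 mid G1 peaks overlapped 32157 late G1 peaks.

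CTCF is a zinc finger protein that binds a long DNA motif. Cohesin is a ring-shaped complex, with Rad21 as one of its subunits, that extrudes chromatin into loops. A CTCF site can halt extruding cohesin, so that loop anchors and the borders of contact domains are often found at CTCF sites that also carry cohesin. Binding of both proteins to chromosomes is reduced in mitosis in many cell types and returns as cells enter G1.

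G1E-ER4 is a subline of the erythroid precursor line G1E, which lacks the erythroid transcription factor GATA1; the labels give strain 129. The subline is known to carry a hormone-inducible GATA1 fusion, and the labels name no induction. The lists hold no expression values, so that the cell type was not checked against markers. The cells of both groups had the same genotype and were treated alike with 200 ng/ml nocodazole for 7 to 8.5 h, a drug that holds cells in pro-metaphase. They were then released for 120 min (mid G1) or 240 min (late G1). Chromatin immunoprecipitation with sequencing (ChIP-seq) had 2 replicates per stage for CTCF and 2 for Rad21, and Hi-C, which reads contacts between DNA sites, had 2 per stage. All are from 1 cell line. The series holds 75 samples. Its other peak lists were used only to look up the same sites in earlier stages and in asynchronous cells, and to set the step from mid to late G1 beside the steps before it.

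The replicates had been pooled into 1 list per target and stage, which leaves no spread between replicates and no test across them. Shares are given with exact 95% binomial intervals. These cover counting error alone, and neighbouring peaks are not independent. Per the names in the peak lists, replicates were merged and downsampled before calling, and the read depth is unknown. The lowest −log10 q was 7.17 in the mid G1 list and 5.75 in that of late G1. Ranks run from 0 for the weakest to 100 for the strongest peak of a list by the authors' fold enrichment at the summit, and a decile is 1 of 10 rank classes of about equal size, counted from the weakest. The fold values are the authors' own and were ranked only within a list. Where folds of a named site are given for several lists, their scales may differ. They are listed values and not measured changes in binding.

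Of the mid G1 peaks, 10.8% (10.5 to 11.2) were lost by late G1, and of the late G1 peaks 4.01% (3.80 to 4.22) were gained. The mid G1 list is the longer one. When it was limited to its 33499 strongest peaks, 7.66% (7.38 to 7.95) of them were lost and 7.52% (7.24 to 7.81) of the late G1 peaks were gained. Nearly every kept peak had a single match, so lists of equal length give nearly equal shares lost and gained by construction. Their closeness therefore shows nothing about the stages. The part of list length in the excess of lost peaks cannot be told apart from that of the stage. Among peaks with a −log10 q of at least 20, the share lost was 5.22% (4.98 to 5.47) and the share gained was 0.832% (0.731 to 0.943).

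The step from mid to late G1 differed in direction from the step before it. From early to mid G1, 4.73% of peaks were lost and 10.6% of the mid G1 peaks were gained. From ana/telophase to early G1 both shares were larger, with 12.0% lost and 13.7% gained. From pro-metaphase to ana/telophase only 0.155% were lost, while 65.2% of the ana/telophase peaks were absent from the pro-metaphase list. These lists differ in length too, and no depth was given for any of them.

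Kept sites were matched tightly. There were 32178 overlapping pairs, of which 32006 were one to one. The summits of a one-to-one pair lay a median of 11 bp apart, 97.8% of them within 50 bp and 0.203% more than 100 bp apart. The smallest overlap of a pair was 8 bp. On the other side of the rule, the lost peak nearest to a late G1 peak lay 23 bp away, and the smallest gap of a gained peak to a mid G1 peak was also 23 bp. Few changes were such near misses: 12 lost peaks had a late G1 peak within 100 bp and 253 (6.49%) within 1000 bp. For gained peaks these counts were 8 and 108 (8.05%). The median gap to the nearest peak of the other list was 16.3 kb for lost and 10.3 kb for gained peaks.

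Lost and gained peaks were the weak end of their lists. The median rank was 10.6 for lost against 55.4 for kept mid G1 peaks, with median fold enrichments of 8.63 and 21.6 in the mid G1 list. Lost folds ran from 2.66 to 21.0, and kept folds reached 78.3. In the late G1 list the median rank was 7.96 for gained against 52.2 for kept peaks, with median folds of 7.89 and 18.7. The highest fold of a gained peak was 16.2. Lost peaks were also narrow, with a median width of 186 bp against 309 bp for kept peaks, and gained peaks had a median width of 168 bp against 287 bp.

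The share lost followed strength within the list. In the weakest decile of the mid G1 list 52.7% (51.1 to 54.4) of peaks were lost, and in the next 2 deciles 36.7% and 15.2%. It was 3.46% in the fourth decile and 0.412% in the fifth. In the strongest 5 deciles 1 peak was lost, the chr17 peak described below. Gained peaks too were most frequent among the weakest, with 24.1% (22.7 to 25.6), 12.7% and 2.96% of the weakest 3 deciles of the late G1 list. None of the 1342 gained peaks came from the strongest 5 deciles, which allows a share of up to 0.275% (exact upper bound). The weakest 3 deciles thus held 96.4% of the lost and 98.7% of the gained peaks.

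**Figure D1:**
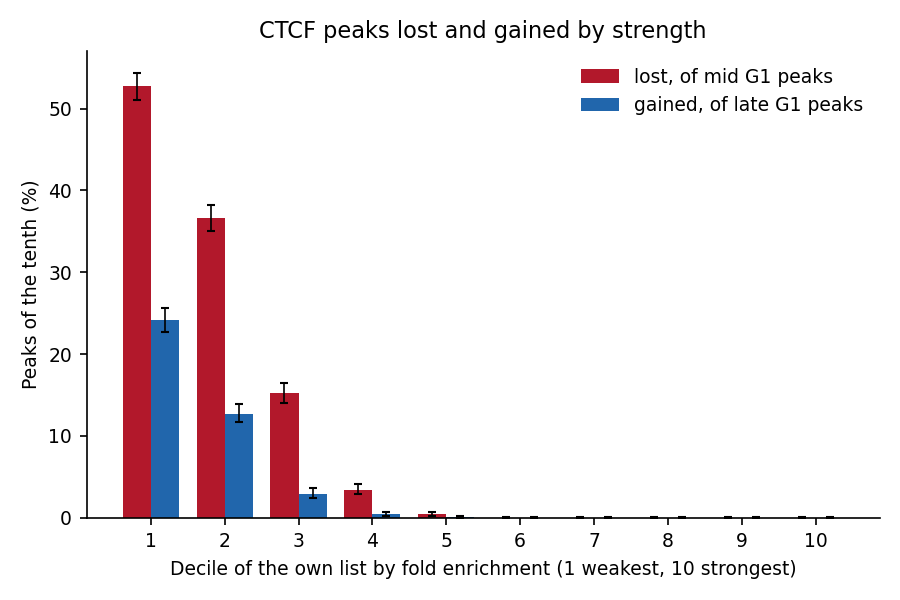
Share of mid G1 CTCF peaks lost by late G1 (red) and of late G1 CTCF peaks gained since mid G1 (blue), in percent, by decile of each peak's own list; error bars are exact 95% binomial intervals. Both shares are highest in the weakest decile, at 52.7% and 24.1%, and are under 1% from the fifth decile on.

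Kept peaks held much of their order. Across the 32006 one-to-one pairs the folds of the 2 lists had a Spearman rho of 0.845, given as a description across peaks of 2 pooled lists. Of the mid G1 peaks in the strongest decile, 52.6% (51.0 to 54.3) were also in the strongest decile of the late G1 list. Of the kept one-to-one peaks in the weakest decile, 73.1% stayed within the weakest 2 deciles.

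Many lost peaks were also listed at other stages. Of the lost peaks, 45.2% overlapped a CTCF peak of ana/telophase, 48.6% one of early G1 and 40.9% one of asynchronous cells. For kept mid G1 peaks these shares were 84.8%, 94.4% and 93.5%. In all, 33.4% (31.9 to 34.9) of the lost peaks were in none of the 4 other lists, against 2.77% of the kept ones. Pro-metaphase peaks covered 3.03% of the lost and 35.1% of the kept peaks.

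Gained peaks too were partly known from other stages. Of the gained peaks, 35.4% overlapped a peak of ana/telophase, 31.5% one of early G1 and 32.9% one of asynchronous cells. For kept late G1 peaks these shares were 84.8%, 94.4% and 93.5%. In all, 46.5% (43.8 to 49.2) of the peaks called gained were in a list earlier than mid G1. These peaks had been listed, were missing in mid G1 and were listed again in late G1. For kept late G1 peaks the share in an earlier list was 95.5%. Another 45.5% of the gained peaks were in none of the 4 other lists, against 2.77% of kept late G1 peaks. Among lost peaks, 23.7% were listed in ana/telophase, early G1 and asynchronous cells alike, so that late G1 was the gap. Of kept mid G1 peaks, 82.5% were in all of these lists.

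For early G1 peaks these gaps were narrower within the weak deciles of rank but remained. Over all mid G1 peaks, 48.6% of lost and 94.4% of kept ones overlapped an early G1 peak. Strength still varied inside a decile, with folds of 2.66 to 8.58 in the weakest of the mid G1 list. In the weakest decile of the mid G1 list, 39.0% (36.8 to 41.3) of lost peaks overlapped an early G1 peak against 62.6% (60.3 to 64.9) of kept peaks. In the third decile the shares were 68.7% and 87.5%. In the weakest decile of the late G1 list they were 28.4% for gained and 72.5% for kept peaks.

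The strongest lost peaks show what a loss looked like in these lists. The strongest was chr17:34253864-34254203 (mm9), with a fold of 21.0 and rank 53.4 in mid G1. It was in none of the other 5 CTCF lists. The fifth strongest, chr17:34251793-34252701, lay beside it, was 909 bp wide and had a fold of 17.0. It too was listed in mid G1 alone. Neither overlapped a Rad21 peak at any stage. Neither lay in a mid G1 loop anchor, but each lay in 1 late G1 loop anchor.

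The other 3 of the 5 strongest lost peaks had a history. The peak chr3:94164831-94165114 was listed at a fold of 17.9 in mid G1, after 15.7 in ana/telophase and 10.7 for early G1, and at 8.61 in asynchronous cells. The peak chr6:100478037-100478329 had 17.1 in mid G1, after 12.0 and 16.6 in those earlier lists, and 16.0 in asynchronous cells. The peak chr16:6018835-6019076 had 17.3 in mid G1, after 7.20 and 9.52, and 8.45 in asynchronous cells. All 3 were missing from the late G1 list alone among the lists after pro-metaphase, and none had a Rad21 peak at any stage.

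The strongest gained peaks mirrored them. The peak chr2:154574174-154574425 had a fold of 24.0 in ana/telophase and 11.0 in early G1, none in mid G1, 16.2 in late G1 and 13.5 in asynchronous cells. The peaks chr5:115672583-115672814 and chr7:148412530-148412751, each with a late G1 fold of 14.0, were also in the ana/telophase, early G1 and asynchronous lists. The peak chr5:73092874-73093111, with a late G1 fold of 14.9, was in every CTCF list but that of mid G1. None of these 4 carried Rad21 at any stage.

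The remaining one, chr16:58281741-58281944, was different. It was in no CTCF list before late G1, where its fold was 14.0, and was in the asynchronous list at 10.4. Rad21 was already listed there in mid G1, with a fold of 4.16 and rank 4.26 in that Rad21 list, and had a fold of 9.85 and rank 56.6 in the late G1 Rad21 list. Its summit lay 1.85 kb from a mid G1 boundary and in 2 mid G1 loop anchors, and in 3 late G1 anchors.

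Changes were spread over the genome. The share of mid G1 peaks lost ran from 8.23% (6.71 to 9.96) on chr19 to 12.0% (10.4 to 13.9) on chr13. The share gained ran from 3.33% (2.29 to 4.66) on chr18 to 5.33% (3.96 to 7.01) on chrX. A kept mid G1 peak lay within 10 kb of 36.8% of lost peaks, against 46.8% of kept ones. Gained peaks had a kept late G1 neighbour as near as that in 46.4% of cases and kept late G1 peaks in 47.0%.

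Rad21 was then read at the kept CTCF peaks. The mid G1 Rad21 list holds 15762 peaks and that of late G1 holds 18958. Of the 32111 kept mid G1 peaks, 14298 (44.5%) overlapped Rad21 in both stages, 3444 (10.7%) in late G1 only, 706 (2.20%) in mid G1 only and 13663 (42.5%) in neither. Gains at kept peaks thus outnumbered losses. Rad21 was listed at 46.7% of the kept peaks in mid G1 and at 55.3% in late G1. Of the 17107 kept peaks without Rad21 in mid G1, 20.1% (19.5 to 20.7) had it in late G1. Of the 15004 with it in mid G1, 4.71% (4.37 to 5.06) lacked it in late G1.

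The size of this gain depended on list length. With both Rad21 lists held to 15762 peaks, 1946 kept peaks gained Rad21, or 11.4% (10.9 to 11.9) of those without it. The number that lost Rad21 was then 1729, or 11.5% of those with it. A net rise in Rad21 at kept CTCF peaks and the larger number of Rad21 peaks called in late G1 cannot be told apart.

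Which kept peaks gained Rad21 went with CTCF strength. Among kept peaks without mid G1 Rad21, 12.2% (10.6 to 13.9) gained it in the weakest decile of CTCF, 17.7% (16.2 to 19.3) in the fifth and 43.0% (39.2 to 46.8) in the strongest. Loss of Rad21 had the opposite slope, from 10.1% (6.39 to 15.1) in the weakest to 1.84% (1.39 to 2.40) in the strongest decile. Rad21 in both stages covered 10.9% of kept peaks in the weakest decile and 79.5% in the strongest.

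**Figure D2:**
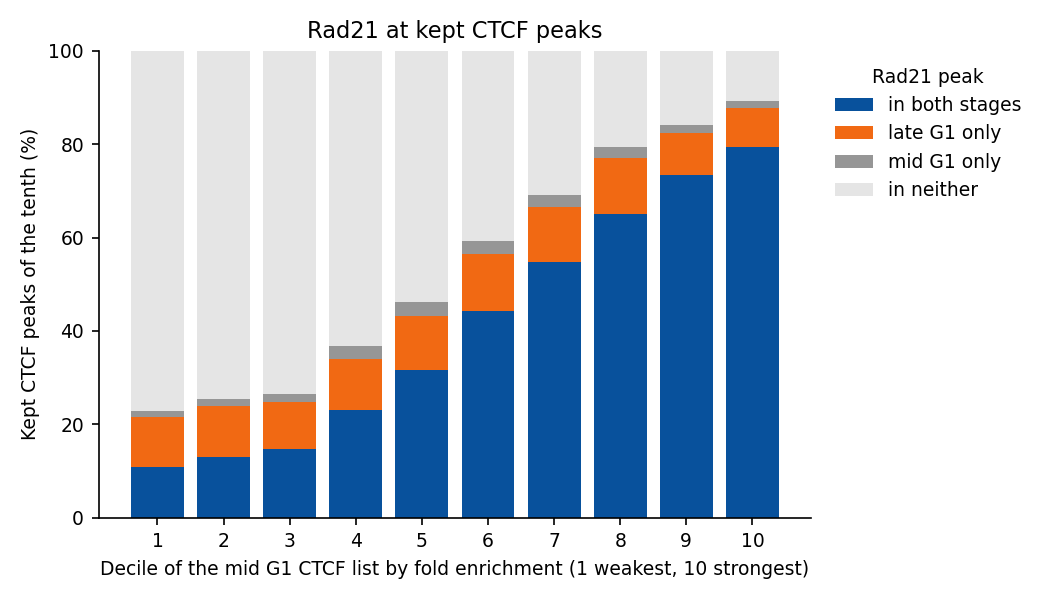
Kept CTCF peaks in each decile of the mid G1 list, split in percent by whether a Rad21 peak overlapped in both stages (blue), late G1 only (orange), mid G1 only (dark grey) or neither (light grey). The blue share runs from 10.9% in the weakest to 79.5% in the strongest decile, while the orange share stays between 8.18% and 12.2%.

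Newly listed Rad21 peaks ranked low in their list. At the sites that gained it, the late G1 Rad21 peak had a median rank of 19.6 and a median fold of 5.52 in its list. At sites with Rad21 in both stages the late G1 values were 62.2 and 10.9. The mid G1 Rad21 peaks at the 706 sites that lost it were weak as well, with a median rank of 15.1 and a median fold of 5.20.

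In their Rad21 of asynchronous cells, sites that gained Rad21 stood between sites with Rad21 in both stages and sites with none. Such a peak overlapped 25.9% (24.5 to 27.4) of them, 83.0% of the sites with Rad21 in both stages, 18.7% (15.9 to 21.8) of those with Rad21 in mid G1 only and 2.56% of those with neither. Of the sites that gained Rad21, 9.26% (8.31 to 10.3) had a Rad21 peak at some stage before mid G1. Rad21 of early G1 overlapped 4.56% of them, 58.5% of sites with both, 3.68% with mid G1 only and 0.278% with neither. For Rad21 of ana/telophase these shares were 5.87%, 46.6%, 6.37% and 1.07%. CTCF itself had mostly been there: 92.8% of the sites that gained Rad21 overlapped a CTCF peak of early G1 and 80.2% one of ana/telophase. For sites with neither, these CTCF shares were 92.0% and 82.0%. The ana/telophase CTCF share of the sites that gained Rad21 was the lowest of the 4 classes.

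The 5 kept sites with the strongest newly listed Rad21 were led by chr5:135441851-135442117, with no Rad21 in mid G1 and a fold of 21.6 and rank 91.6 in the late G1 Rad21 list. Its CTCF fold was 10.4 in the mid G1 list, 10.2 in that of late G1 and 55.7 in that of asynchronous cells. At chr5:10648086-10648416, the late G1 Rad21 fold was 14.0, with CTCF ranks of 53.8 and 76.3 in mid and late G1. At chr14:103949659-103950026, Rad21 had folds of 3.34 in ana/telophase and 4.01 in early G1, was not listed in mid G1 and had a fold of 13.5 in late G1. The other 2 were chr6:16977623-16977882 and chr12:26996455-26996801, with late G1 Rad21 folds of 13.3 and 13.0.

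Lost and gained CTCF peaks rarely carried Rad21. Of the lost peaks, 3.44% (2.89 to 4.06) overlapped Rad21 in mid G1, where the share over all mid G1 CTCF peaks was 42%. In late G1, when no CTCF peak was listed there, 4.90% (4.24 to 5.63) overlapped Rad21, 89 of them in both stages and 102 in late G1 only. Of the gained peaks, 18.9% (16.8 to 21.0) overlapped Rad21 in late G1, against 53.7% over all late G1 CTCF peaks. Rad21 was listed in mid G1, where no CTCF peak was, at 119 (8.87%) of the gained peaks, against 45.2% over all late G1 CTCF peaks.

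Since lost and gained peaks were weak, kept peaks were also weighted so that their deciles of rank matched those of the class they were set against. Weighted in this way, 14.1% of kept mid G1 peaks had Rad21 in mid G1, which is 10.6 percentage points (9.55 to 11.7) above the lost peaks. In late G1, 16.3% of weighted kept peaks had Rad21, a difference from the gained peaks of -2.57 points (-4.83 to -0.307). For Rad21 of mid G1 the order was the other way, with 12.0% of weighted kept late G1 peaks against 8.87% of gained peaks, 3.12 points (1.42 to 4.83) apart. With deciles of rank matched, then, lost peaks had less Rad21 of their own stage than kept peaks. Gained peaks had less Rad21 of mid G1 and slightly more of late G1 than kept peaks.

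Domain boundaries are the edges of the contact domains called from Hi-C, 12752 positions in mid G1 and 13553 in late G1. Over all mid G1 CTCF peaks, 30.6% had a summit within 20 kb of a mid G1 boundary. This share was 31.5% for kept and 22.8% for lost peaks, a difference of 8.70 percentage points (7.26 to 10.1). Over all late G1 peaks 31.2% lay within 20 kb of a late G1 boundary, with 31.6% for kept and 21.5% for gained peaks, 10.1 points (7.72 to 12.2) apart. Most of the first difference went with rank: weighted to the deciles of the lost peaks, kept peaks stood at 25.1%, 2.28 points (0.513 to 4.05) above lost peaks. Weighted to the gained peaks they stood at 25.5%, 3.93 points (1.45 to 6.40) above.

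The same order held for distance. The median distance from summit to nearest boundary of the same stage was 47.4 kb for kept and 63.7 kb for lost peaks in mid G1. It was 47.7 kb for kept and 67.9 kb for gained peaks in late G1. For peaks of the mid G1 list read against the late G1 boundaries, the medians were 47.7 kb for kept and 65.8 kb for lost peaks.

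**Figure D3:**
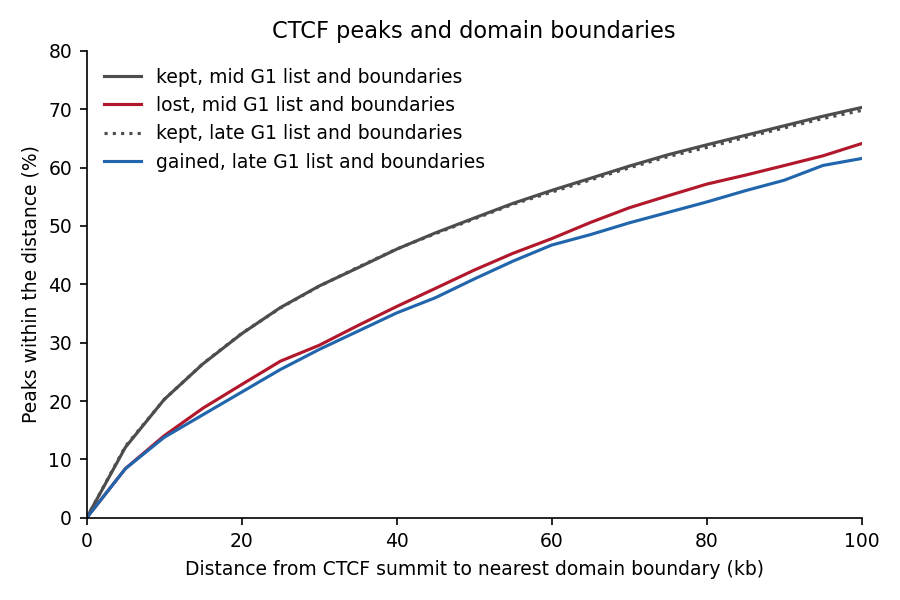
Cumulative percent of CTCF peaks whose summit lay within a given distance, in kb, of the nearest domain boundary of the same stage. The curves of kept peaks in mid and late G1 nearly coincide and lie above those of lost (red) and gained (blue) peaks at every distance drawn above 0; at 20 kb the values are 31.5%, 31.6%, 22.8% and 21.5%.

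Seen from the boundaries, few had a changed CTCF peak and fewer had nothing else. Of the mid G1 boundaries, 56.8% had a kept CTCF peak within 20 kb and 8.58% a lost one, but 2.77% (2.49 to 3.07) had a lost peak and no kept one. This last share was 2.77% at the 9905 boundaries called in both stages and 2.77% (2.20 to 3.45) at the 2847 called in mid G1 alone. Of the late G1 boundaries, 2.79% had a gained peak and 0.767% (0.627 to 0.929) had a gained and no kept one. The share with a gained peak was 3.32% at boundaries called in both stages and 1.22% (0.880 to 1.64) at those called in late G1 alone. Boundaries called in 1 stage alone had kept CTCF less often, 29.5% against 64.6% in mid G1.

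Loop anchors set the classes further apart. Over all mid G1 CTCF peaks 48.7% overlapped an anchor of a mid G1 loop. This share was 51.2% for kept and 28.1% for lost peaks, 23.1 percentage points (21.6 to 24.6) apart. With rank weighted it was 39.6% for kept peaks, still 11.6 points (9.61 to 13.5) above lost peaks. Over all late G1 CTCF peaks 54.7% overlapped a late G1 anchor, with 55.1% for kept and 45.2% for gained peaks, 9.96 points (7.23 to 12.7) apart. That order turned with rank weighted: kept peaks stood at 40.4%, a difference from gained peaks of -4.71 points (-7.66 to -1.76). Read against the anchors of mid G1, when they were not in the CTCF list, gained peaks were also above rank-weighted kept peaks, at 40.0% against 36.4%.

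Stripes are lines of contact that run from 1 anchor along a domain. Over all mid G1 peaks 8.45% overlapped a stripe anchor of mid G1, 9.09% of kept and 3.16% of lost peaks, and with rank weighted the kept share was 5.76%. Over all late G1 peaks the share was 8.89%, with 9.06% for kept and 4.84% for gained peaks. With rank weighted the kept share was 4.46%, and its difference from gained peaks had an interval that included 0 (-1.65 to 0.881).

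**Figure D4:**
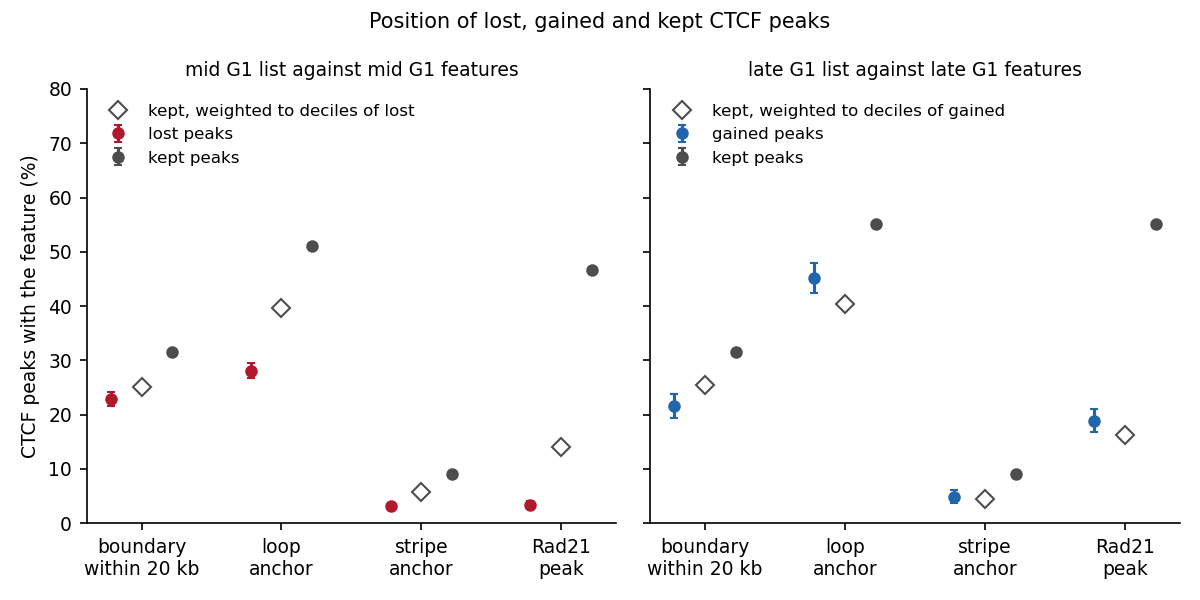
Percent of lost (red), gained (blue) and kept (dark grey) CTCF peaks within 20 kb of a boundary, in a loop anchor, in a stripe anchor or over a Rad21 peak of their own stage; error bars are exact 95% binomial intervals, and open diamonds are kept peaks weighted to the rank deciles of the class beside them. The diamonds lie above lost peaks for all 4 features, and below gained peaks for loop anchors, stripe anchors and Rad21.

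Most anchors with a lost or gained peak also held a kept peak, at shares slightly above those over all anchors. Of 17409 distinct mid G1 anchors, 1374 held a lost peak, and 80.1% (77.9 to 82.2) of these also held a kept peak. Of 20272 late G1 anchors, 842 held a gained peak, and 79.7% (76.8 to 82.4) of these also held a kept one. Over all mid G1 anchors, 76.1% held a kept peak, and over all late G1 anchors 73.8%.

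Loops themselves were mostly found again. Of 9714 mid G1 loops, 89.4% had a late G1 loop with both anchors within 20 kb. Among the 6357 loops with kept CTCF peaks at both anchors the share was 91.4% (90.7 to 92.1). It was 82.1% (77.0 to 86.4) among the 273 with an anchor that held a lost but no kept peak. It was 86.0% (84.8 to 87.2) among the other 3084, which had an anchor without CTCF. Loops anchored on kept CTCF at both ends were thus the most often found again of the 3 classes, and most loops with an anchor held by a lost peak alone were found again too. Of 11340 late G1 loops, 81.1% had a mid G1 match, with 84.5% among loops with kept peaks at both anchors and 75.3% (68.3 to 81.4) among the 178 with an anchor held by a gained peak alone. The share was 75.5% (74.2 to 76.8) among the other 4156, which had an anchor without CTCF. Of the 1027 loops called in mid G1 alone, 4.77% (3.55 to 6.26) had an anchor with a lost but no kept peak, against 2.58% (2.26 to 2.93) of those found in both stages. Of the 2148 called in late G1 alone, 2.05% (1.49 to 2.74) had one with a gained but no kept peak, against 1.46% (1.22 to 1.72) of those found in both stages. Loops called in 1 stage alone were also weaker. Their median observed contact signal was 21.7 against 28.4 in mid G1, and 22.2 against 29.3 in late G1. They were also slightly longer, with median sizes of 180 kb against 160 kb in mid G1 and 170 kb against 160 kb in late G1. The median ratio of observed to expected signal was 3.19 against 3.65 in mid G1, and 2.82 against 3.42 in late G1.

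Some changed peaks lay in loops of 1 stage. The strongest lost peak in an anchor of a loop called in mid G1 alone was chr11:74709778-74710017, with a fold of 13.6 and a summit 0.110 kb from a boundary of both stages. Its loop spanned 30 kb, with an observed contact signal of 79.0 against an expected 44.5. The lost peak chr3:28463969-28464225, with a fold of 13.1, lay in a loop of 180 kb with 20.7 observed against 3.88 expected. The lost peak chr19:41836082-41836315 lay in a loop of 440 kb, and although CTCF was no longer listed there in late G1, Rad21 was, with a fold of 4.79.

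Among gained peaks in loops called in late G1 alone, the strongest was chr16:58281741-58281944, described above. Its loop spanned 610 kb, from chr16:57660001-57690000 to chr16:58280001-58290000, with 17.9 observed against 3.30 expected. The gained peak chr7:52720959-52721147 had a fold of 11.1 and was in no other CTCF list. It overlapped a Rad21 peak in late G1 alone, with a fold of 6.12, and its loop spanned 250 kb with 16.3 observed against 6.52 expected. The gained peak chr17:28461434-28461641, with a fold of 10.5, lay in a loop of 70 kb and had no Rad21.

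Sites that gained Rad21 were in loop anchors more often than sites with none, and already so in mid G1. They were there about as often as kept peaks at large. Over all kept peaks, 51.2% overlapped a mid G1 anchor and 55.1% a late G1 anchor. Of kept peaks that gained Rad21, 50.1% (48.4 to 51.8) overlapped a mid G1 anchor, at a stage when no Rad21 was listed there. The share was 66.4% (65.6 to 67.2) with Rad21 in both stages, 40.4% (36.7 to 44.1) with Rad21 in mid G1 only and 36.0% (35.2 to 36.9) with neither. The order was the same in deciles 5 to 7 of CTCF rank, at 63.9%, 50.5%, 37.0% and 35.9% for both, gained, lost and neither, although the last 2 intervals overlapped. In late G1 the shares over all kept peaks were 70.1%, 55.7%, 42.2% and 40.0%.

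Anchors also changed unequally. Among kept peaks outside mid G1 anchors, 24.7% (22.6 to 26.8) of those that gained Rad21 were in a late G1 anchor, against 17.4% (16.6 to 18.3) with neither and 26.9% (25.7 to 28.2) with both. Among kept peaks in mid G1 anchors, 13.4% (11.9 to 15.2) of those that gained Rad21 were outside late G1 anchors, against 20.1% (19.0 to 21.2) with neither and 8.00% (7.46 to 8.56) with both. Boundaries differed less, with 29.6% (28.1 to 31.2) of peaks that gained Rad21 within 20 kb of a mid G1 boundary, 27.8% with neither and 35.6% with both. Over all kept peaks this share was 31.5%. In deciles 5 to 7 of CTCF rank the order of gained and neither turned, at 28.4% (25.9 to 30.9) and 30.2% (28.9 to 31.6) for mid G1 boundaries. For late G1 boundaries the shares were 28.1% (25.7 to 30.7) and 31.0% (29.7 to 32.4). The intervals of gained and neither overlapped, but no interval of their difference was computed. Stripe anchors of mid G1 overlapped 5.87% (5.10 to 6.70) of peaks that gained Rad21, 4.27% with neither and 14.7% with both. Over all kept peaks they overlapped 9.09%.

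**Figure D5:**
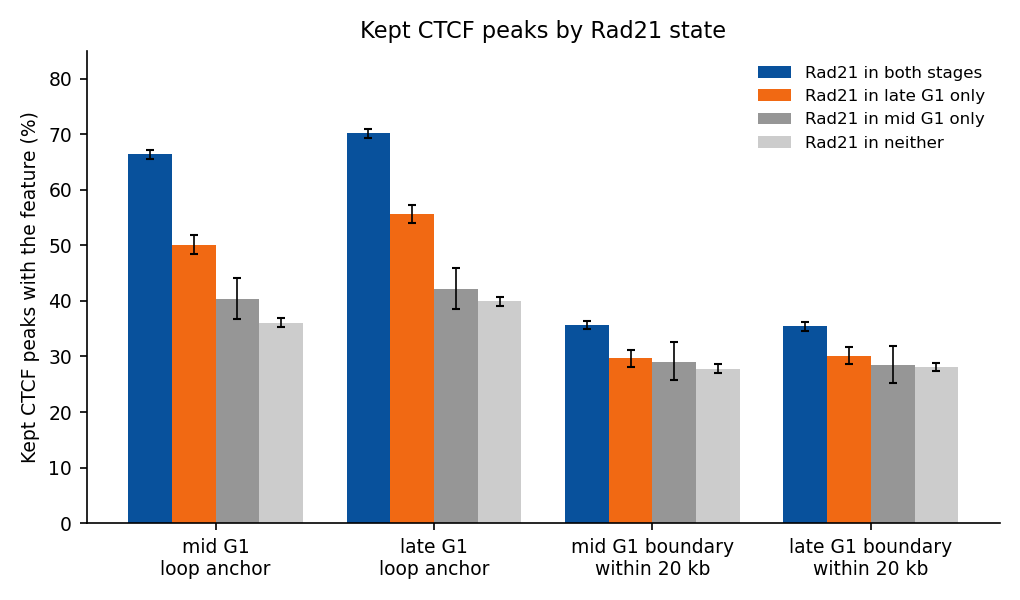
Percent of kept CTCF peaks in a loop anchor or within 20 kb of a boundary, in mid and late G1, by Rad21 state; error bars are exact 95% binomial intervals. For mid G1 anchors the bars read 66.4%, 50.1%, 40.4% and 36.0%, and for mid G1 boundaries 35.6%, 29.6%, 29.0% and 27.8%.

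Seen from the loops, kept peaks that gained Rad21 were slightly less frequent at loops called in late G1 alone than at loops of both stages. They were about as frequent where both anchors held kept peaks. A kept peak that gained Rad21 lay at either anchor of 24.5% (23.6 to 25.4) of late G1 loops also called in mid G1 and of 21.7% (20.0 to 23.5) of those called in late G1 alone. Among loops with kept peaks at both anchors, the shares were 32.7% (31.5 to 33.9) and 33.6% (30.8 to 36.5). What differed more, over all late G1 loops, was Rad21 in both stages at both anchors. It was found in 47.4% (46.4 to 48.4) of the loops called in both stages and in 31.1% (29.2 to 33.2) of those called in late G1 alone. Kept peaks at both anchors, with or without Rad21, were found in 64.4% and 50.6% of these loops. These differences were not separated.

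A core of kept peaks had a boundary, a loop anchor and Rad21 in both stages. Of the 32157 kept late G1 peaks, 2264 (7.04%) did so, with the boundary within 20 kb; stripes were not asked for. The strongest of them in late G1 was chr11:95120323-95120875, with a CTCF fold of 65.7 and CTCF ranks of 98.7 and 99.97 in mid and late G1. Its Rad21 fold was 5.82 at rank 23.4 in mid G1, and 11.7 at rank 65.9 in late G1. The peak chr5:135382945-135383426 was in all 6 Rad21 lists, at Rad21 ranks of 99.9 and 99.5 in mid and late G1. The peak chr4:137875406-137875846 had a CTCF fold of 65.4 and lay in 3 loop anchors in each stage.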

How the data were processed

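The members, tests and the way of weighting were chosen with earlier results of these data known. For ChIP-seq the submitters' processing notes name MACS2 2.1.0, Bowtie 0.12.7, bedtools 2.27.1 and SAMtools 1.7, for Hi-C HiC-Pro and Bowtie2, and for both the build mm9. Neither the callers of domains, loops and stripes nor the normalization of contacts is given in the sources used here. Replicates were merged and downsampled before calling, per the names in the deposited peak lists.

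The deposited peak lists give a fold enrichment, a ratio read at the summit, and a −log10 q. Each loop has an observed and an expected contact signal and a p-value, per the file headers. Domains, loops and stripes are deposited in bins of 10 kb. The depth per sample is unknown.

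Overlaps and distances were computed with Python 3.11.15, NumPy 2.4.6 and pandas 2.3.3, and passed 6 of 6 tests on simulated data, 3000 and 2000 intervals. Intervals at 95% are exact binomial for a share (SciPy 1.17.1). They are Newcombe's for a difference (statsmodels 0.14.6) and the normal approximation for a rank-weighted one. Boundaries counted as near within 20 kb of the summit, and 2 loops were the same where each anchor was at most 20 kb from the other's. Rad21 of mid G1 was read at the mid G1 peak, and Rad21 of late G1 at that peak or its late G1 match. Sites were named by rule: the 5 strongest lost, gained and Rad21-gaining peaks, and the 3 strongest in each loop or core class. Genes and sequences were not used, since no mm9 reference was at hand.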

Additional observations from a re-analysis of the deposited data

How the results depend on the processing

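No paired analysis was possible because each list pools its replicates and carries no replicate number, and leaving out a replicate was not possible for the same reason. The cause of the moves below was not tested beyond what each setting does by construction. Peaks lost were 10.8% as deposited, 5.22% at a −log10 q of at least 20 and 7.66% in lists of equal length. Peaks gained were 4.01%, 0.832% and 7.52% in turn, 4.49% with an overlap of 50% of both peaks and 4.39% with summits within 100 bp. Rad21 gain was 20.1%, 19.1% with Rad21 peaks of −log10 q of at least 5 and 11.4% in Rad21 lists of equal length. Kept peaks exceeded lost peaks near boundaries by 8.70 points, by 6.21 within 10 kb, 4.94 with outermost domains and 2.28 with rank weighted. They exceeded gained peaks by 10.1 points, by 6.47, 5.07 and 3.93 in turn. At loop anchors, kept exceeded lost peaks by 23.1 points and by 11.6 with rank weighted. Kept exceeded gained peaks by 9.96 points and by 5.51 with anchors widened by 10 kb, and the difference was reversed, at -4.71, with rank weighted. The other 14 values of these results stayed within the interval of the main value. The excess in mid G1 anchors of kept peaks that gained Rad21 over those with none was 14.0 points, and 10.1 with anchors widened by 10 kb. Rank weighting, a 50% overlap for the position results and Rad21 read at the joined site were chosen after seeing the data.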
